A study of Homo sapiens with 6 samples.

Results

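Cassette exons of 60 bases or less were followed in HBEC3kt cells, an immortalised line of human bronchial epithelial cells, with and without the U2AF1 S34F substitution. An exon was taken when it lay inside the exon chain of a deposited long-read isoform and another isoform of the same gene joined its flanking splice sites directly. Its inclusion is the share of informative reads, those of isoforms with the exon or skipping it between these flanks, that carry the exon. Of 12126 such exons built from the isoforms, 1756 had 60 bases or less, and 632 of these had fewer than 10 informative reads in at least 1 of the 6 libraries. The other 1124 are described here, out of 7541 cassette exons of any length that passed the same minimum. They lie in 794 genes, of which 577 hold 1 and 217 hold more, and at 1077 positions that do not overlap, since 91 of them overlap another one.

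Poly(A) RNA was reverse transcribed using SmartSeq2, per the labels, and sequenced as full-length cDNA on a nanopore device. The 3 wild-type and the 3 U2AF1 S34F libraries each come from 2 isolates: libraries 1 and 2 are isolates 1 and 2, marked B1, and library 3 is isolate 2 again, marked B2. No treatment or time is labelled. How the isolates were derived and what B1 and B2 mean remain not given in the sources used here, so a p-value reflects only how far these libraries scatter. Total reads were 1286512 to 1720292 in the wild-type and 451540 to 1014868 in the S34F libraries, and the median number of informative reads per short exon ran from 129 to 189.5 and from 55 to 101. The labelled cell type was checked on its markers: all 9 basal bronchial markers and all 5 epithelial markers were read, while none of 6 fibroblast and none of 3 endothelial markers had an isoform in the table. Of 4 blood markers CD14 was read (15 reads in all), of 3 neuronal markers SYT1 (27 reads), and of 6 secretory or ciliated markers TUBA1A (727 reads), a tubulin gene at 62.8 to 94.1 CPM (counts scaled to library size) in wild type and 161 to 199 in S34F (edgeR adjusted p = 0.0207); its part in the results was not tested. Among the epithelial markers, EPCAM had only 47 reads in all. CDH1 stood at 37.3 to 76.5 CPM in the B1 libraries and at 965 (wild type) and 862 (S34F) in the B2 libraries. Isoform counts hold no base calls, so they do not check the genotype.

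Internal exons are usually recognised across their length, by factors that bind the splice sites at both ends at once. Very short exons leave little room for this, and many depend on enhancer sequences in the neighbouring introns or on dedicated factors such as SRRM4 in neurons. U2AF1 is the small subunit of the U2AF heterodimer, which reads the AG at the end of an intron. The S34F substitution lies in a zinc finger of U2AF1 and is known to shift its preference for the base before that AG. When a cassette exon is a multiple of 3 bases long, its inclusion keeps the reading frame of a coding transcript.

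The sequences of some of the 12 exons called for genotype are shown first, so that their size and their place in the message can be seen. Each is read 5′ to 3′ on the strand of the gene from a matched GENCODE 29 transcript. This transcript shares its ID (version aside), exon number, inner exon lengths and intron lengths with the deposited isoform. Capitals mark the cassette exon, and the 12 lower-case bases on each side belong to the neighbouring exons. Positions given in the text are those of the deposited isoforms, in hg19. The exons of ACOT9, TPD52L2, SMIM7 and ATP6V0B were included less, and that of RPS13 more, in the S34F libraries:
ACOT9: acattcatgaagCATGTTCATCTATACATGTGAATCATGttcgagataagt
TPD52L2: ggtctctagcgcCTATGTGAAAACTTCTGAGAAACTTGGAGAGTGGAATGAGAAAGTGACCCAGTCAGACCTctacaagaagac
SMIM7: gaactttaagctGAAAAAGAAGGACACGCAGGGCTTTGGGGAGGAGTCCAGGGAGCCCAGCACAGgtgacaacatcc
ATP6V0B: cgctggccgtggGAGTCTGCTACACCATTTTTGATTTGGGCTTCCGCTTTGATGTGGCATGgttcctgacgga
RPS13: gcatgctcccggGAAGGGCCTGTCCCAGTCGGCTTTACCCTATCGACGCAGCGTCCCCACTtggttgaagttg

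The MYL6 exon ends the open reading frame inside itself. Its first 29 bases, up to and including the stop codon, which is in capitals, are shown because they replace the end of the protein that the skipping form encodes:
MYL6: cgtttgtgaggcatatcctgtcggggTGA

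The exons of RAC1 and PCBP2 differed between B1 and B2, and those of UCHL3, F11R and HNRNPK are among the shortest. The 12-base exon matched to UCHL3 and the 13-base exon matched to F11R stand in the deposited models under the gene IDs ENSG00000261553 and ENSG00000270149:
RAC1: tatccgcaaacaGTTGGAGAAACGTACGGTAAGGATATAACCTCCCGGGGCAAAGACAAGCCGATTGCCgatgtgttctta
PCBP2: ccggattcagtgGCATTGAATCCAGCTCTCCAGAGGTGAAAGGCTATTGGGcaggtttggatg
UCHL3: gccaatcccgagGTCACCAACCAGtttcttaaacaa
F11R: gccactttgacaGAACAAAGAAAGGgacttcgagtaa
HNRNPK: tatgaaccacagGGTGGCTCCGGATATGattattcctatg

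Most short cassette exons were included in nearly all reads. Median inclusion was 93.57% over the wild-type means and 93.64% over the S34F means, beside 93.79% and 94.16% over cassette exons of any length. In the wild type, 677 of the 1124 exons had a mean inclusion of 90% or more, 301 lay between 10% and 90%, and 146 were below 10%. The 6 libraries gave medians between 93.12% and 93.93%, so no library stood apart in its overall inclusion. Replicates were close: the median SD over 3 libraries was 1.526 percentage points in wild type and 2.06 in S34F.

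Levels varied with annotation. An isoform counts as annotated where its deposited ID is an Ensembl transcript. For 646 exons (57.47%) only the form with the exon was annotated, and their median inclusion was 96.85% in wild type and 96.99% in S34F. For 152 exons (13.52%) only the skipping form was annotated, and inclusion was 5.664% and 4.485%. In the 235 exons (20.91%) with both forms annotated it was 76.68% and 75.25%, and in the 91 (8.096%) with neither it was 74.62% and 72.71%.

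The 80 exons of 27 bases or less, often called microexons, had a median inclusion of 88.81% in wild type and 89.49% in S34F. Among them 35 (43.75%) lay between 10% and 90% in wild type, compared with 26.78% of all short exons and 25.3% of cassette exons of any length. Exons of 60 bases and of 61 bases, on the 2 sides of the length limit, had wild-type medians of 95.68% (66 exons) and 95.16% (40 exons). At the read minimum, exons whose shallowest library had 9 reads (33 exons, left out) had a median pooled inclusion of 86.79%, and those with 10 reads (25 exons, kept) 68.95%. Reads in which a very short exon was lost during alignment cannot be told apart from reads that skip it.

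**Figure D1:**
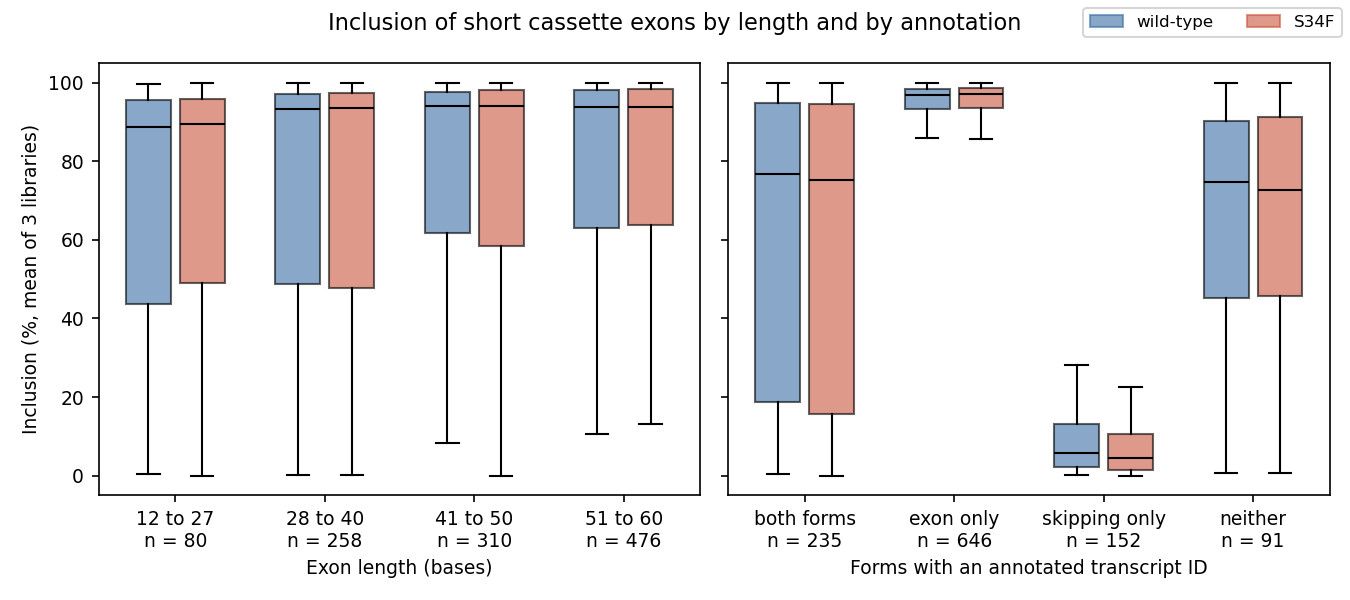
Inclusion (percent, mean of 3 libraries per genotype) of the 1124 short exons by exon length in bases (left) and by which forms carry an annotated transcript ID (right). Boxes show quartiles with the median as a line, whiskers reach the farthest value within 1.5 box lengths, blue is wild type and red is S34F, and the classes with only the exon or only the skipping form annotated sit at opposite ends of the scale.

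A transcript of GENCODE 29 was matched to 840 short exons. Of these, 717 (85.36%) lay wholly in coding sequence, 48 in both coding sequence and a UTR, 48 in a 5′ UTR, 5 in a 3′ UTR and 22 in noncoding transcripts. For 39 members the matched transcript bears another gene name than the deposited gene ID. Lengths were a multiple of 3 in 486 of 1124 exons (43.24%), beside 42.57% for cassette exons of any length. Among the 235 exons with both forms annotated the share was 50.21%, beside 43.01% of such exons of any length. Of all bases in the matched exons pooled, 48.83% were G or C, against 51.53% over all lengths. The median upstream and downstream introns were 1105 and 903 bases long against 1228 and 1163. These are descriptions, and no difference between length classes was tested.

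Inclusion differed between the genotypes for 12 short exons, 3 higher and 9 lower in S34F, at an adjusted p of 0.05 or less in edgeR's quasi-likelihood test with Benjamini-Hochberg adjustment over all 7541 cassette exons. That is 1.068% of the members, beside 0.888% of all cassette exons tested. Higher calls were 0.133% and lower calls 0.756% of all exons, so the members' share is near the background. In percentage points, the largest falls were in the acyl-CoA thioesterase ACOT9, the trafficking gene TPD52L2, the lysosomal gene LAMTOR3 and the myosin light chain MYL6, and the largest rise was in the secreted protein gene DMKN. All 12 differed in the same direction within B1 and within B2, and for 11 of the 12 the wild-type and S34F libraries did not overlap. The 12 were picked by their p in these same libraries, so this describes them and is no separate support. Of all cassette exons tested, 15.2% did not overlap.

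Over the whole set, differences went in both directions about equally often. The median difference, S34F minus wild type, was -0.01 percentage points, beside 0.02 over all cassette exons, with 568 members lower and 556 higher in S34F. Unadjusted p was under 0.05 for 102 members (9.075%, beside 9.34% over all), and the libraries did not overlap for 78 higher (6.94%, beside 6.98%) and 91 lower members (8.096%, beside 8.23%). The mean differed by more than 10 percentage points in 55 members, a count that was not taken over all cassette exons. Some of these rest on few reads. The 49-base exon of AURKB, with 85 reads over all libraries, was 12.05 points higher in S34F (edgeR adjusted p = 0.780).

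In the edgeR fit all exons share 1 trended spread, since the estimated prior had infinite degrees of freedom. By contrast, limma on log odds called 0 short exons (103 at an unadjusted p under 0.05) and DESeq2 called 0 (29 at an unadjusted p under 0.05). Of the 12 exons, only ACOT9 was still called without wild-type library 3 or without S34F library 3, and 5 to 7 were without any other library. Without either library 3 a single B2 library is left, which the B1/B2 term fits alone. Here and below, both of these runs thus compare the genotypes on the B1 libraries only. Libraries 2 and 3 of each genotype share an isolate, and with these summed, 3 of the 12 were called, ACOT9, PLEK2 and RPS13. The other 9 then had edgeR adjusted p-values from 0.0531 for SMIM7 to 0.266 for MYL6, with 0.0703 for CD59, 0.0929 for TPD52L2 and 0.1002 for DMKN.

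**Figure D2:**
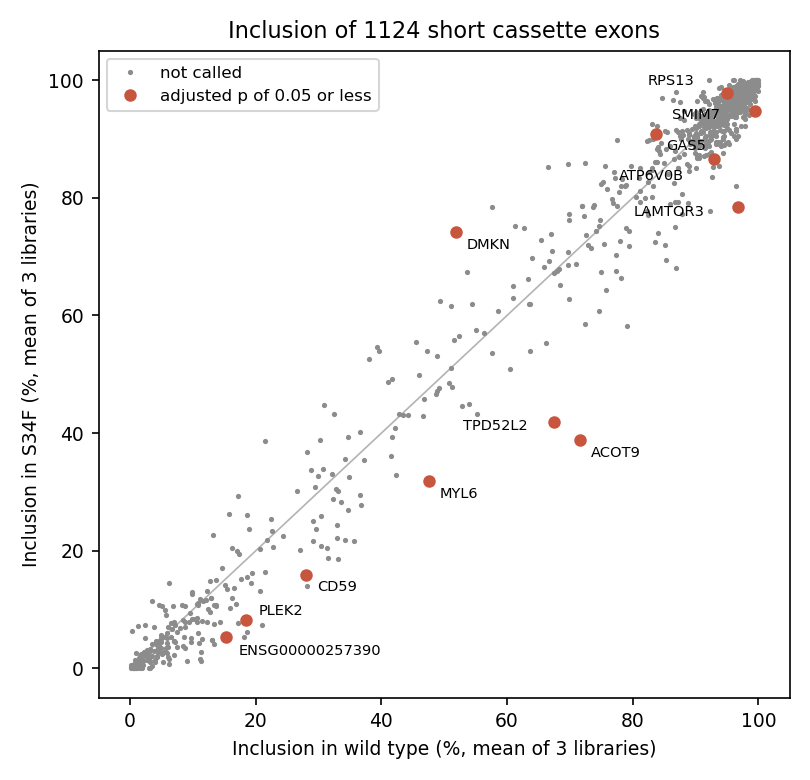
Mean inclusion of each of the 1124 short exons in the 3 wild-type libraries (horizontal, percent) and the 3 S34F libraries (vertical, percent); the line marks equal inclusion. Red points are the 12 exons with an adjusted p of 0.05 or less, of which 9 lie below the line and 3 above.

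ACOT9 encodes a mitochondrial acyl-CoA thioesterase, and its 27-base coding exon on chromosome X (chrX:23752458-23752484, minus strand) is the third exon of 16 in the matched transcript. Inclusion was 73.2%, 67.9% and 73.9% in the wild-type libraries and 35.7%, 38.2% and 42.4% in the S34F libraries. Every S34F library was below every wild-type library. The mean fell from 71.7% ± 3.32 to 38.8% ± 3.37 (SD, n = 3 each), a log2 odds ratio of -2.03 with an edgeR adjusted p of 5.60e-05. The difference was -33.6 percentage points within B1 and -31.6 within B2. An overlapping 36-base member (chrX:23752449-23752484) shares the upstream end of this exon. It was at 26.2%, 10% and 19.6% in wild type and 6.90%, 4.55% and 7.02% in S34F, and was not called (edgeR adjusted p = 0.220). The inclusion of each form leaves out the reads of the other, so neither is a share of all ACOT9 reads. Of the 12 calls, ACOT9 was the one that held when any single library was left out, and it held in 14 of 16 alternatives, all but limma and DESeq2. Of these alternatives, the runs without either library 3 and the run on B1 libraries only are nearly the same fit.

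TPD52L2 belongs to the tumour protein D52 family, which acts in vesicle traffic. Its 60-base coding exon (chr20:62507169-62507228, plus strand) was included in 66.5%, 66.4% and 69.7% of wild-type reads and in 45%, 31.7% and 49.0% of S34F reads. The groups did not overlap, and S34F library 2, with 41 informative reads, was the lowest. The mean fell from 67.5% ± 1.89 to 41.9% ± 9.05 (SD, n = 3 each), a log2 odds ratio of -1.49 with an edgeR adjusted p of 0.00589. The call was lost without wild-type library 3, S34F library 2 or S34F library 3.

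A related gene, TPD52L1, has a 39-base coding exon (chr6:125574863-125574901) with low values in all libraries. Its inclusion was 25.4%, 11.6% and 17.4% in wild type and 2.17%, 6.45% and 7.25% in S34F. Although the libraries did not overlap, the difference did not pass the test (edgeR adjusted p = 0.112).

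MYL6 encodes the essential light chain of nonmuscle and smooth muscle myosin, and its 45-base exon (chr12:56554410-56554454, plus strand) is the sixth of 7 and holds the stop codon shown above. Inclusion was 41.7%, 52.3% and 48.6% in wild type and 33.9%, 31.9% and 29.9% in S34F, with 1127 to 4195 informative reads per library. The S34F libraries were all below the wild-type ones. The mean fell from 47.6% ± 5.399 to 31.9% ± 2.02 (SD, n = 3 each), a log2 odds ratio of -0.95 with an edgeR adjusted p of 0.0034. Without wild-type library 2, wild-type library 3 or S34F library 3 the call was lost. MYL6 RNA stood at 1491 ± 425 for wild type and 3985 ± 2622 CPM for S34F (SD, n = 3 each; edgeR adjusted p = 0.0718).

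MYL6 has another pair of short exons, of 28 and 31 bases, that share their downstream end and differ by the upstream splice site. Neither passed the test. The 28-base form was at 97.9% ± 0.712 in wild type and 98.4% ± 0.300 in S34F (SD, n = 3 each). The 31-base form was at 78.7% ± 3.28 and 82.1% ± 2.28 (SD, n = 3 each), and its libraries overlapped. Each value sets a form against the skipping reads and leaves out the reads of the other form, so neither is a share of all MYL6 reads. The 31-base form had 1046 informative reads over all libraries, beside 11237 for the 28-base form.

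CD59 is a membrane-anchored inhibitor of the complement attack complex, and its 45-base exon (chr11:33752970-33753014, minus strand) lies in the 5′ UTR. It was included in 29.6%, 27.6% and 26.97% of wild-type and 15.4%, 15.8% and 16.6% of S34F reads. Both groups were tight and apart, with 608 to 2542 informative reads per library. The mean fell from 28.1% ± 1.38 to 15.9% ± 0.628 (SD, n = 3 each), a log2 odds ratio of -1.04 with an edgeR adjusted p of 0.00153. Leaving out wild-type library 1, wild-type library 3 or S34F library 3 ended the call. CD59 RNA stood at 1669 ± 281 and 1675 ± 379 CPM (SD, n = 3 each).

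PLEK2, a pleckstrin family member linked to the actin skeleton, has a 49-base exon (chr14:67864724-67864772, minus strand) whose skipping form alone is annotated. Its inclusion was 14.9%, 20.3% and 20.04% in wild type and 9.29%, 8.22% and 7.42% in S34F. The groups did not overlap. The log2 odds ratio was -1.32 with an edgeR adjusted p of 0.00153, and the call was lost without wild-type library 3 or S34F library 3.

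An exon of 53 bases under the gene ID ENSG00000257390 (chr12:56209671-56209723, minus strand) was likewise annotated only as skipped. It was included in 15.6%, 15.5% and 14.6% of wild-type reads and in 3.33%, 5.32% and 7.56% of S34F reads. The values were apart, with 90 to 397 informative reads per library. Its log2 odds ratio of -1.49 had an edgeR adjusted p of 0.0108, and the call was lost when any 1 library was left out.

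DMKN encodes dermokine, a secreted protein of stratified epithelia, and holds 9 of the short exons, the most of any gene. Its 51-base exon (chr19:36000813-36000863, minus strand), in the 5′ UTR of the matched transcript, was included in 53.5%, 50.97% and 51.3% of wild-type reads. In the S34F libraries it was 72.3%, 80.7% and 69.4%, all above the wild-type values. The mean rose from 51.9% ± 1.39 to 74.1% ± 5.86 (SD, n = 3 each), a log2 odds ratio of 1.36 with an edgeR adjusted p of 0.00649. The call was lost without wild-type library 2 or 3 or S34F library 2 or 3.

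The other 8 short exons of DMKN did not pass the test. Several kinds of level stood side by side in the gene: exons of 24 and 57 bases at 96.2% and 99.2% in wild type, the 51-base exon at intermediate inclusion, and exons of 35, 36, 42, 54 and 60 bases at 10.9% to 13.7%. The 60-base exon (chr19:35997028-35997087) was at 10.5%, 7.08% and 16.5% in wild type and 1.22%, 2.13% and 4.84% in S34F. Its libraries did not overlap, and its edgeR adjusted p was 0.0785. The 48-base exon was lowest in the B2 library of both genotypes, at 88.0% and 79.7%, beside 91.0% to 98.0% in the B1 libraries.

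**Figure D3:**
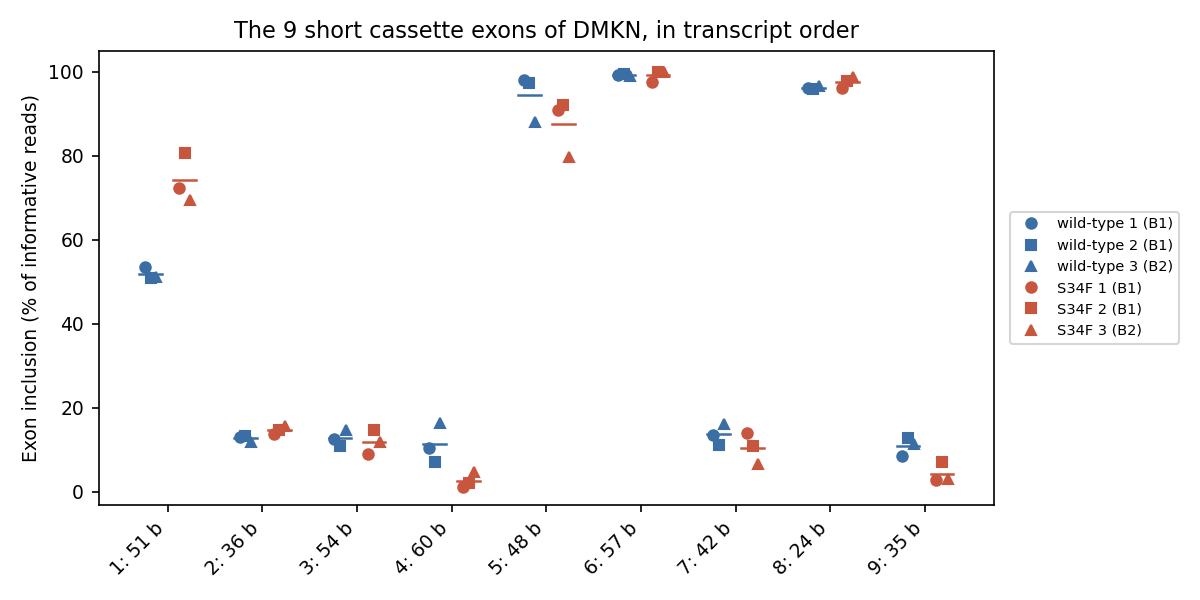
Inclusion (percent of informative reads) of the 9 short exons of DMKN in the order of the transcript, labelled by length in bases, with 1 point per library and a line at each mean of 3 libraries. The first exon, of 51 bases, has its 3 S34F libraries between 69.4% and 80.7%, above the wild-type libraries at 50.97% to 53.5%.

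The remaining 5 called exons were included in most reads of both genotypes. RPS13, a protein of the small ribosomal subunit, has a 49-base coding exon (chr11:17098976-17099024) at 93.2%, 94.5% and 97.4% in wild type and 98.4%, 96.4% and 98.6% in S34F. These libraries overlapped, and the difference was 3.60 percentage points within B1 and 1.22 within B2 (edgeR adjusted p = 0.0252). The 23-base exon of GAS5, a noncoding gene that hosts small nucleolar RNAs, rose from 83.1%, 83.6% and 84.3% in wild type to 92.2%, 87.9% and 92.5% in S34F (edgeR adjusted p = 0.0382).

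ATP6V0B encodes a subunit of the membrane sector of the proton pump V-ATPase, and its 49-base coding exon (chr1:44441472-44441520) was at 94.9%, 92.0% and 92.2% in wild type. It fell to 86.5%, 86.5% and 86.9% in S34F, below all wild-type libraries (edgeR adjusted p = 0.0382). SMIM7, a gene for a small membrane protein, has a 53-base coding exon (chr19:16770206-16770258) at 99.6%, 98.8% and 100% in wild type and 95.7%, 94.1% and 94.5% in S34F (edgeR adjusted p = 0.0271). The skipping form was thus a small part of the SMIM7 reads in every library.

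LAMTOR3 belongs to the Ragulator complex on lysosomes, and its 46-base exon (chr4:100815112-100815157) rests on few reads, 13 to 52 per library. Inclusion was 100%, 96.0% and 94.2% in wild type and 92.3%, 84.2% and 58.6% in S34F. The S34F library 3 value, from 29 reads, has an exact 95% Clopper-Pearson interval of 38.9% to 76.5%, which like the other intervals covers counting error only. The difference was -9.74 percentage points within B1 and -35.6 within B2 (edgeR adjusted p = 0.0295), and leaving out any 1 library ended the call. Calls for RPS13, SMIM7, GAS5 and ATP6V0B were lost with 4 or 5 of the 6 left-out libraries, wild-type library 3 and S34F library 3 among them each time. How reads from near-identical gene copies were assigned remains not given in the sources used here, which bears on RPS13 and other ribosomal protein genes.

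**Figure D4:**
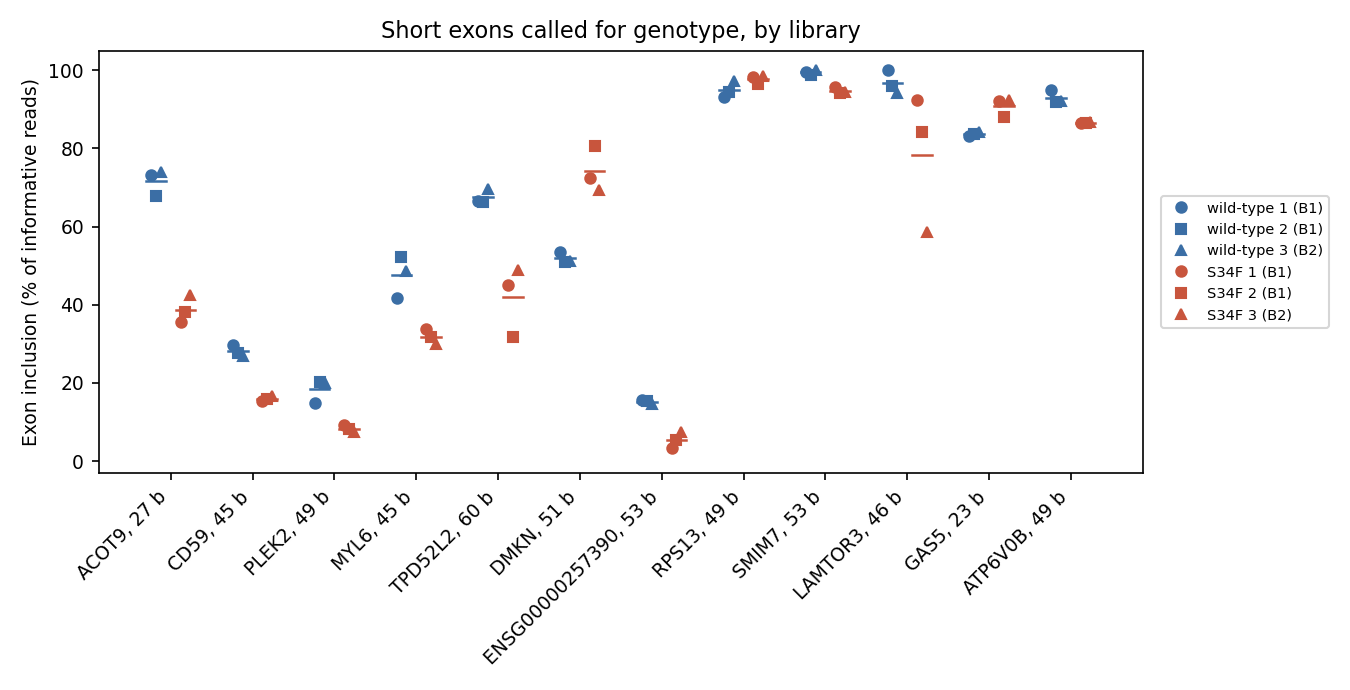
Inclusion (percent of informative reads) of the 12 short exons called for genotype, ordered by p, with 1 point per library and a line at each mean of 3 libraries. Wild-type and S34F libraries are apart for each exon except RPS13, and S34F library 3 of LAMTOR3 stands at 58.6%.

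None of the 12 genes with a called exon was called for its RNA level, and the median log2 fold change of these genes was -0.09. Of the 794 genes with a short exon, 9 were called for level (1.134%, beside 3.24% of the 7033 genes tested), 4 higher and 5 lower in S34F (1.11% and 2.13% of all genes tested). Among them, DDIT3, a transcription factor of the stress response, had levels of 162 ± 36.8 and 49.4 ± 5.97 CPM in wild type and S34F (SD, n = 3 each). The laminin chain gene LAMB3 was at 2175 ± 240 and 841 ± 170 CPM (SD, n = 3 each), with edgeR adjusted p-values of 0.00405 for DDIT3 and 0.029 for LAMB3. Their own short exons moved by 1.05 and 2.48 percentage points and were not called. The count of 9 fell to 0 without the B1/B2 term and without wild-type library 2, wild-type library 3 or S34F library 3, was 1 without wild-type library 1, and rose to 32 and 48 without S34F libraries 1 and 2. The runs without either library 3 again compare the genotypes on the B1 libraries only.

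The base before the AG of the upstream intron could be read for 354 of the 1124 short exons, from transcripts that run through the intron end, and 353 of these end in AG. It was C in 239 exons, T in 98, A in 15 and G in 2. Of the 239 with C, 5 were called, 3 higher and 2 lower, with a median difference of 0.16 percentage points; the named ones are RPS13, GAS5 and DMKN on the higher side and MYL6 and ATP6V0B on the lower. Of the 98 short exons with T, 0 were called by edgeR, and the median difference was -0.40 percentage points. The unadjusted edgeR p was under 0.05 for 11 short exons with T (11.22%) and 19 with C (7.95%). Of all cassette exons tested, 0.888% were called and 9.34% had an unadjusted p under 0.05. Among cassette exons of any length, 13 of 536 with T were called, all lower in S34F, and 13 of 1401 with C, 6 higher and 7 lower. With A it was 1 of 101, higher in S34F, and with G 2 of 15, both lower. These are edgeR calls, and over all 7541 cassette exons limma called 0 and DESeq2 2. The base could not be read for ACOT9, TPD52L2, CD59 and the other called exons.

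RNA-binding genes held the most short exons among the gene lists examined, with 13 in 9 of 19 genes. None was called by edgeR, and 2 had an unadjusted p under 0.05, beside 0.888% and 9.34% of all cassette exons tested. The 22-base exon of the ribosomal protein gene RPS24 (chr10:79799962-79799983) was at 28.2%, 32.1% and 30.7% in wild type and 18.6%, 22.9% and 21.1% in S34F. Its libraries did not overlap (edgeR adjusted p = 0.118). EIF4H, a cofactor of the translation helicase, had its 60-base exon at 29.4%, 28.9% and 32.4% in wild type and 39.4%, 41.1% and 35.9% in S34F, also apart (edgeR adjusted p = 0.59). The 26-base exon of HNRNPC in the 5′ UTR was at 69.9% ± 1.41 and 76.3% ± 3.08 (SD, n = 3 each; edgeR adjusted p = 0.52).

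Other members of this list showed wider overlap. The 36-base exon of HNRNPA2B1, which distinguishes the A2 and B1 proteins, was at 22.6% ± 5.55 in wild type and 23.4% ± 1.46 in S34F (SD, n = 3 each). HNRNPD, an AU-rich element binding protein, had its 57-base exon at 63.6% ± 2.39 and 53.9% ± 16.1 (SD, n = 3 each), with S34F libraries from 38.1% to 70.2%. U2AF1 itself has a 50-base coding exon at 96.7% ± 1.65 and 94.6% ± 2.86, and an unannotated 54-base exon at 4.86% ± 1.41 and 4.93% ± 0.982 (SD, n = 3 each). The U2AF1 libraries overlapped for both exons.

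Membrane traffic genes held 8 short exons in 6 of 20 genes, of which 1 was called, the fall in TPD52L2. The clathrin light chain genes CLTA and CLTB each had 1 short exon included in most reads and 1 skipped in nearly all, with the 38-base exon of CLTA at 85.3% ± 5.29 and the 47-base exon of CLTB at 94.6% ± 1.54 in wild type (SD, n = 3 each). The 36-base exon of CLTA was at 1.58% ± 0.114 in wild type and 1.70% ± 1.36 in S34F, and the 54-base exon of CLTB at 1.86% ± 0.381 and 1.52% ± 0.620 (SD, n = 3 each). Cytoskeleton and adhesion genes held 8 in 3 of 23 genes, of which 1 was called, the fall in MYL6. Of all cassette exons tested, 0.888% were called, and lists this small do not tell a share of their own from it. The 4 short exons of CAST, the calpain inhibitor, were between 90.8% and 95.8% in wild type and none was called. The 8 genes of the transcription and chromatin list held no short cassette exon, and the metabolism list held 1, in the mitochondrial fission gene MFF, at 5.31% ± 2.64 in wild type and 1.04% ± 1.80 in S34F (SD, n = 3 each; edgeR adjusted p = 0.67).

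None of the 8 shortest exons, of 12 to 18 bases, was called for genotype, beside 0.888% of all cassette exons tested. So few exons do not tell a share of their own from it. Among the 80 exons of 27 bases or less, 2 were called (2.5%), those of ACOT9 and GAS5. The 12-base exon matched to UCHL3, a ubiquitin hydrolase (chr13:76124112-76124123), was at 81.5%, 82.1% and 86.2% in wild type and 79.7%, 80.7% and 85.7% in S34F. In both genotypes the B2 library was the highest. The 12-base exon of the calpain gene CAPN2 (chr1:223945071-223945082), for which neither form is annotated, was at 32.7% ± 1.68 and 30.6% ± 6.14 (SD, n = 3 each). The 13-base exon matched to F11R, a tight junction adhesion molecule, was at 68.4% ± 5.29 and 65.2% ± 6.05 (SD, n = 3 each), and its libraries overlapped.

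HNRNPK, an RNA-binding protein of poly(C) stretches, had a 16-base exon (chr9:86585812-86585827) at 54.4% ± 6.86 in wild type and 62.0% ± 4.44 in S34F (SD, n = 3 each). The 17-base exon of SUGT1, a cochaperone, was at 88.2% ± 3.42 and 94.8% ± 4.53 (SD, n = 3 each). The 18-base exons of ANXA6, an annexin, and AIG1 were at 41.7% ± 1.81 and 49.2% ± 10.3, and at 4.62% ± 3.68 and 10.7% ± 2.07 (SD, n = 3 each). The AIG1 values rest on 22 to 100 reads per library, and SUGT1 and AIG1 did not overlap between genotypes although neither passed the test.

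None of the 8 exons with the most reads was called for genotype, beside 0.888% of all cassette exons tested. So few exons do not tell a share of their own from it. ANXA2, which binds membranes in a calcium-dependent way, had its 59-base exon at 99.55% ± 0.156 in wild type and 99.53% ± 0.186 in S34F, and the cell cycle kinase gene CDK4 its 51-base exon at 99.4% ± 0.040 and 99.3% ± 0.285 (SD, n = 3 each). The 55-base exon of RPS19 was at 99.4% ± 0.113 and 99.5% ± 0.042 (SD, n = 3 each). A 23-base exon under the gene ID of JUP (chr17:39776788-39776810) matched a transcript of KRT17, a basal keratin, and was at 95.1% ± 0.778 and 94.9% ± 0.722 (SD, n = 3 each). In the noncoding gene SNHG29 the 57-base exon was at 74.6% ± 0.910 and 75.3% ± 2.35 (SD, n = 3 each). GAPDH and GSTP1 lay at 96.2% ± 1.42 and 96.5% ± 1.17, and at 95.7% ± 1.43 and 96.5% ± 0.396 (SD, n = 3 each).

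B2 and B1 libraries differed for 17 short exons, 11 higher and 6 lower in B2, by the same edgeR test (1.512% of the members, beside 0.968% of all cassette exons; 0.398% higher and 0.57% lower). limma called 0 of these (96 at an unadjusted p under 0.05) and DESeq2 called 1. No short exon was called for both genotype and B1/B2. The largest difference was in PCBP2, a poly(C)-binding protein gene, whose 39-base coding exon (chr12:53861589-53861627) was at 53.9%, 57.6% and 12.9% in wild-type libraries 1 to 3 and 45.3%, 53.6% and 9.48% in S34F. Library 3 was far below the others in both genotypes. Informative reads also differed, with 28 to 102 in the B1 libraries and 517 to 521 in the B2 libraries.

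RAC1 encodes a small GTPase of the actin skeleton, and its 57-base exon (chr7:6438293-6438349), which makes the Rac1b form, was at 21.3%, 25.3% and 52.1% in wild type and 12.1%, 10% and 44.3% in S34F. Within B1 the S34F libraries were both below the wild-type ones, with a mean difference of -12.25 percentage points, and within B2 the difference was -7.80 points; the genotype term had an edgeR adjusted p of 0.074. The B2 minus B1 difference was 31.0 percentage points, with an edgeR adjusted p of 6.50e-11. An exon of 45 bases in the aminopeptidase gene NPEPPS (chr17:45696644-45696688) was at 65.9% to 87.5% in B1 and at 95.1% and 94.2% in B2, with 22 to 54 reads per B1 library. The ubiquitin-conjugating enzyme gene UBE2D2 had its 32-base exon at 95.3% to 97.6% in B1 and at 79.7% and 77.5% in B2.

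Small differences also passed this test where reads were many. The 41-base exon of ACTB was at 0.957% to 2.41% in B1 and 4.05% and 3.94% in B2, with 4118 to 18543 reads per library. SAT1, which acetylates polyamines, had its 52-base exon at 97.6% to 99.0% in B1 and 99.5% and 99.2% in B2. Further calls included HMGA1, a chromatin protein gene with a 51-base exon at 92.0% to 96.6% in B1 and 83.5% and 74.3% in B2. What sets B1 and B2 apart is not labelled, so this difference cannot be traced to a step of the work.

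**Figure D5:**
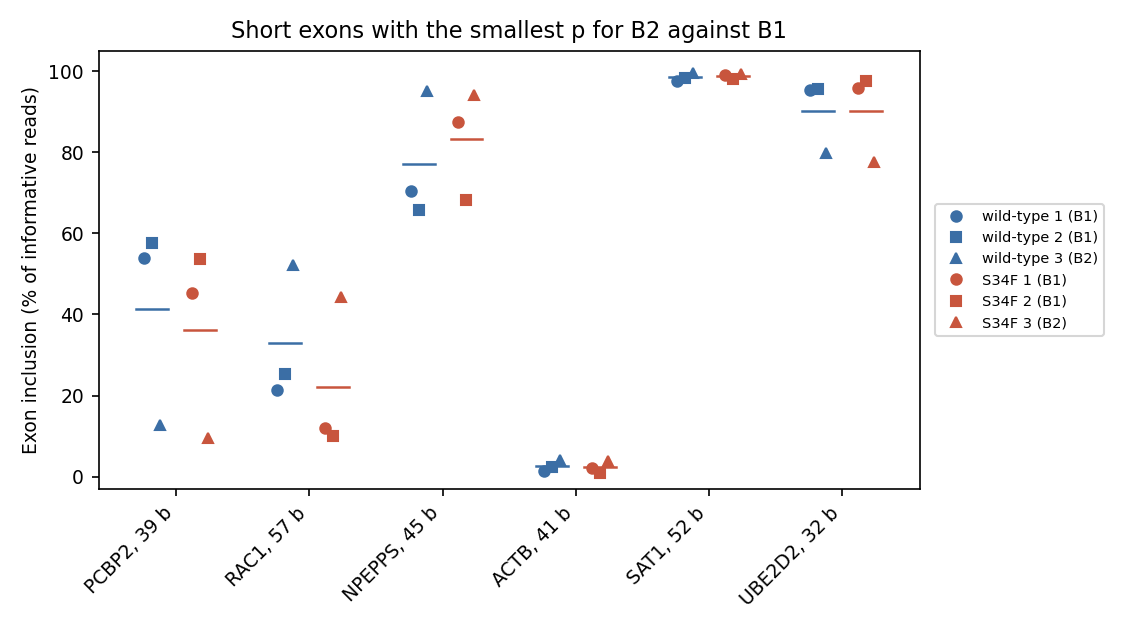
Inclusion (percent of informative reads) of the 6 short exons with the smallest p for B2 against B1, with 1 point per library and a line at each mean of 3 libraries; triangles are the B2 libraries. The B2 points of PCBP2 lie at 12.9% and 9.48% and those of RAC1 at 52.1% and 44.3%, apart from the B1 points of both genotypes.

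Of 25 regulators of short exons and of epithelial splicing, 16 were read and 15 could be tested for level. None was called by edgeR, beside 3.24% of all genes tested, and 1 had an unadjusted p under 0.05. HNRNPA1, which represses many exons, had levels of 254, 265 and 352 CPM in the wild-type libraries and 388, 675 and 579 CPM in the S34F libraries, a log2 fold change of 0.93 with an edgeR adjusted p of 0.128. ESRP1, an epithelial splicing regulator, was at 27.5 ± 20.6 and 15.8 ± 6.89 CPM, and RBFOX2 at 120 ± 23.0 and 104 ± 27.5 CPM (SD, n = 3 each). U2AF1 RNA stood at 458 ± 138 and 399 ± 148 CPM (SD, n = 3 each). SRRM3, SRRM4, PTBP2, PTBP3, MBNL1, MBNL2, NOVA1, RBM24 and TIA1 had no isoform in the table used here.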

How the data were processed

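The authors deposited raw counts of nanopore reads per isoform in 6 libraries, and isoform models whose file name points to FLAIR, on the hg19 build per the submitters' processing notes. The aligner, filters and strand use remain not given in the sources used here. Coordinates, the other unit used, are the deposited exon starts and ends. Cassette exons were built from the exon chains, and inclusion was computed with Python 3.11.15 and pandas 2.3.3. An edgeR 4.0.16 quasi-likelihood model (R 4.3.3) took 2 counts per library and exon, with library, B1/B2 and genotype terms and 3 residual degrees of freedom. Gene counts used TMM scaling and filterByExpr. The threshold was a Benjamini-Hochberg adjusted p of 0.05. Both models were run on simulated data with independent libraries, no B1/B2 effect and only large changes. Those runs do not cover shared isolates, B1/B2 differences or smaller changes. limma 3.58.1 (offset 0.5; prior degrees of freedom 4.44) and DESeq2 1.42.0 were alternatives. Sequences come from GENCODE 29 (GRCh38) through transcript IDs with the same inner exon and intron lengths, and no coordinate was converted. Symbols were looked up by the deposited gene ID, while UCHL3, F11R and KRT17 are the gene names of matched transcripts. The 12 called exons, the 8 shortest, the 8 with most reads, the 6 with the smallest p for B2 against B1 and members of the gene lists were named; 1 of these exons and 1 sequence are not reported here. Members and lists were chosen with earlier results of these data known. No library pair had identical counts (0 pairs). Replicate numbers were not used to pair the libraries in the main model.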

Additional observations from a re-analysis of the deposited data

How the results depend on the processing

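The count of 12 short exons called for genotype became 0 with limma, 0 with DESeq2, 2 without the B1/B2 term, 3 with the isolate 2 libraries summed, 1 in B1 libraries only and 19 with all flank pairs summed, of which 12 were shared with the 12 reported. Leaving out 1 library gave 1 to 7 calls, and the runs without either library 3 compare the genotypes on the B1 libraries only, as the B1 run does. It was 9 to 17 with other read minimums or any flanks. The 17 exons called for B2 against B1 became 0 with limma and 1 with DESeq2, and were 14 to 18 otherwise. The 9 genes called for level became 14 with DESeq2, 20 with no filter on low counts, 0 in B1 libraries only and 0 when the B1/B2 term was dropped (33 and 28 with unadjusted p under 0.05), and 0 to 48 with 1 library left out. The 0 regulators called became 0 to 1. With the replicate block in place of the B1/B2 term, 7 short exons were called, all among the 12. Same-numbered libraries correlated at -0.01, 0.00 and 0.14 in their deviations, beside -0.08 to 0.09 for the other pairs. Values this low cannot tell whether the numbers pair the libraries, and both libraries numbered 3 are B2. The median log2 odds ratio over members, -0.04, became 0.05 in B1 libraries only and 0.04 without wild-type library 3 or without S34F library 3. None of the 12 exons called for genotype reversed its direction in any alternative run; the other named exons were not refitted one by one. The cause of these changes was not tested.

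Depth was lowest on the S34F side, with a median of 55 informative reads per short exon in its shallowest library. The 632 short exons under the read minimum were not analysed here. For exons with a called difference, the aligner's handling of very short exons was not tested.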
